A study of Mus musculus with 6 samples.

Results

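Granzymes are serine proteases, and perforin is the pore-forming protein that lets them into a target cell. Both are the killing proteins of CD8+ T cells. Their transcripts were followed here as a group of 6 genes chosen by symbol (Gzma, Gzmb, Gzmc, Gzmk, Gzmm and Prf1), and Ensembl IDs matched 5 of them among 13675 listed genes. Gzmc was not analysed here. The libraries came from donor OT-I CD8+ T cells, whose transgenic receptor sees an ovalbumin peptide. Donor cells carried CD45.2 and were moved into CD45.1 B6 hosts, which keep their own T cells, and each host got 1 of the 2 donor genotypes. Hosts were then infected with Listeria monocytogenes-OVA, a bacterium that makes ovalbumin, and donor cells were recovered from spleens by sorting after 7 days. The control label (3 libraries) is CK2αfl/fl, a floxed gene for the catalytic subunit of the kinase CK2 with no Cre named. The knockout label (3 libraries) is CK2αfl/fldLck-Cre, the same floxed gene with Cre under the distal Lck promoter, which acts in maturing T cells. Both groups therefore carry the floxed alleles, the OT-I receptor and the infection. The labels give neither ages nor whether a label's 3 samples are separate animals or pools, so a p-value here reflects only how far these samples spread, and that spread may be technical. Values per library are given in the order 1, 2, 3, and the control-labelled libraries are called controls.

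Granzymes are stored as active enzymes in acidic granules, bound to the proteoglycan serglycin, after cathepsin C removes a short activation peptide. Granzyme B cuts after aspartate and sets off caspases in the target cell. Granzymes A and K cut after lysine or arginine, and granzyme M prefers methionine or leucine. Effector CD8+ T cells are known for high granzyme B and perforin, whereas granzyme K is known from memory-like and early differentiated cells. In the mouse the genes lie at separate places: Gzma and Gzmk are neighbours on chromosome 13, Gzmb and Gzmc belong to a cluster on chromosome 14, and Gzmm and Prf1 lie far apart on chromosome 10.

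Some facts of the libraries bear on all values. The gene targeted by the Cre, Csnk2a1, measured 1665, 1847 and 1645 normalized counts in the controls and 2828, 2875 and 2786 under the knockout label, which goes against the label, and a count over the whole gene does not check which exons were deleted. Directions below are therefore given between labels. All 9 CD8+ T cell identity genes were present in each library. Limma and edgeR called 0 of them (1 by DESeq2, 1 at an unadjusted limma p below 0.05). Yet 8 were estimated lower under the knockout label, and the list median was -0.14 on the log2 scale. Their summed normalized counts did not overlap: 185534 to 200309 in the control-labelled and 177186 to 181564 in the knockout-labelled libraries. B cell transcripts differed within the knockout label: 11 B cell markers summed to 483 to 551 normalized counts in the control-labelled libraries, to 435 in knockout-labelled library 1, and to 2491 and 2294 in knockout-labelled libraries 2 and 3. The other 2 markers on that list, Cd22 and Ighm, were higher in all 3 knockout-labelled libraries and were the 2 of 13 that limma called. DESeq2 called 6 of the 13 higher, and 11 had an unadjusted limma p below 0.05. All 13 had a positive log2 fold change (median 1.47). Of 10 markers of NK cells, which share granzymes and perforin with CD8+ T cells, 9 were measured, and limma and edgeR called 0 (1 by DESeq2, 1 at an unadjusted limma p below 0.05). Their sum ran from 4027 to 4831 normalized counts in the control-labelled and from 4654 to 5140 in the knockout-labelled libraries, with Eomes, which CD8+ T cells also express, as its largest part. Of 10 measured myeloid markers limma called 1 higher (Cd68) and 1 lower (Itgax), and of 4 CD4+ T cell markers 1 lower (Cd40lg). The 4 CD4+ T cell markers summed to 1926 to 2328 normalized counts in the control-labelled and 2352 to 2526 in the knockout-labelled libraries. Of these 4, 2 were estimated lower, DESeq2 called 1 higher and 1 lower, and 3 had an unadjusted limma p below 0.05. Cd68 passed in 1 of 6 runs with 1 library left out, and edgeR called 0 myeloid markers higher, whereas Itgax passed in 6. The myeloid markers summed to 11657 to 13258 normalized counts in the control-labelled and 9121 to 10141 in the knockout-labelled libraries. Yet only 2 of the 10 myeloid markers were estimated lower, and the list median was 0.12, so the lower sum does not stand for the list. DESeq2 called 2 myeloid markers higher and 1 lower, and 4 had an unadjusted limma p below 0.05. Of 4 gamma-delta T cell and 6 erythroid or platelet markers limma, edgeR and DESeq2 called 0, with 1 of each list at an unadjusted limma p below 0.05. The part of these other cells in the results was not tested.

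Of the 5 measured genes, Gzmk, Gzmm and Gzma were called higher and Gzmb was called lower in the knockout-labelled libraries. Prf1 did not pass the test. Calls are at a Benjamini-Hochberg adjusted p below 0.05 in a limma fit over 13654 genes, and this fit called 2.04% of all genes higher and 3.15% lower (5.19% in all). The genes were picked with earlier results of these data known, so their share of calls is a description of them. In each of the 5 genes the 3 control-labelled and the 3 knockout-labelled values did not overlap, as in 25.7% of all tested genes. The exact two-sided permutation p of each gene's 6 values was 0.1, the smallest that 3 against 3 libraries can give. In sorted cells measured in bulk, fewer cells of a type and less RNA per cell cannot be told apart.

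Gzmb (ENSMUSG00000015437, GRCm38 chromosome 14, 56258838 to 56262260, minus strand) encodes granzyme B. It measured 12503, 14635 and 12684 normalized counts in the controls, against 8477, 7957 and 8748 under the knockout label. All knockout-labelled libraries lay below all controls, and control-labelled library 2 was the highest of the 6. The mean went from 13274 ± 1182 to 8394 ± 402 (SD, n = 3 each). That is 1.58-fold lower, a log2 fold change of -0.66 with a 95% interval of -0.84 to -0.48 (limma, adjusted p = 0.00241).

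Prf1 (ENSMUSG00000037202, chromosome 10, 61297833 to 61304680, plus strand) encodes perforin. It measured 5975, 5330 and 5985 normalized counts in the controls, against 4395, 5137 and 4553 under the knockout label. Control-labelled library 2 and knockout-labelled library 2 came close to each other. The means were 5763 ± 375 and 4695 ± 391 (SD, n = 3), and the log2 fold change was -0.30 with a 95% interval of -0.48 to -0.12 that did not pass after adjustment over all genes (limma, adjusted p = 0.0659). Without control-labelled library 2 it passed (log2 fold change -0.35, limma adjusted p = 0.0116).

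**Figure D1:**
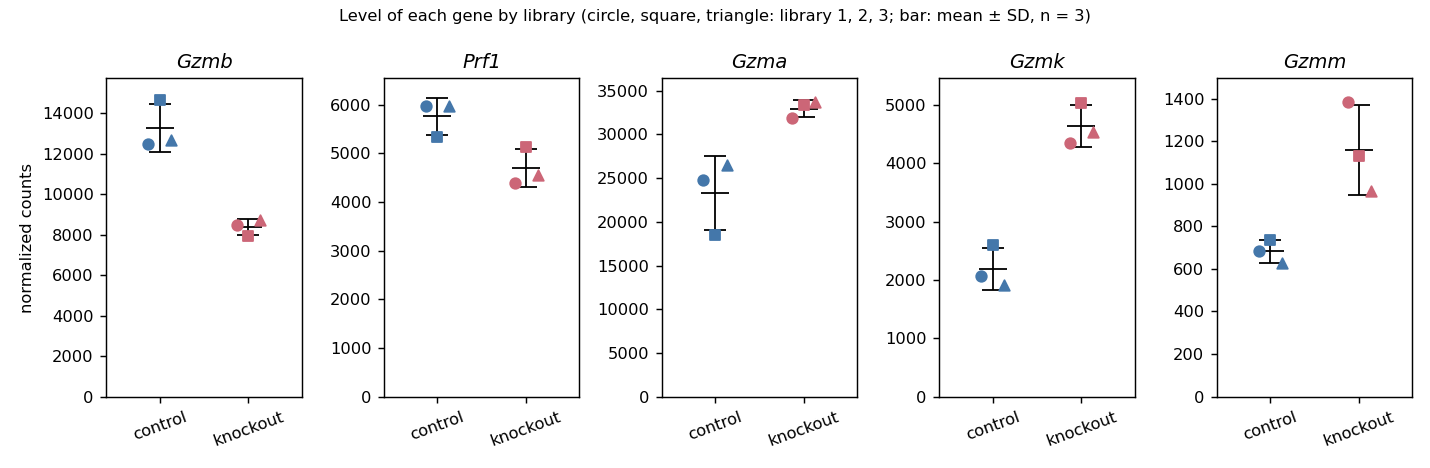
Normalized counts (vertical axis, from 0) of the 5 measured genes in each of the 6 libraries, with the mean and SD of each label (n = 3); blue is the control label and red the knockout label. Gzmb and Prf1 sit lower and Gzma, Gzmk and Gzmm higher under the knockout label, and the Gzmm values of the knockout label spread from 964 to 1385.

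Gzma (ENSMUSG00000023132, chromosome 13, 113093825 to 113100981, minus strand) encodes granzyme A, the most abundant transcript of the group. It measured 24831, 18534 and 26554 normalized counts in the controls, against 31871, 33335 and 33652 under the knockout label. The knockout-labelled libraries lay close together, with a coefficient of variation of 2.88% against 18.1% in the controls, where library 2 was the low one. The mean rose from 23306 ± 4222 to 32953 ± 949.8 (SD, n = 3), which is 1.43-fold, with a log2 fold change of 0.52 and a 95% interval of 0.24 to 0.79 (limma, adjusted p = 0.0422). This call was the least firm of the 4. With 1 library left out at a time it passed in 1 of 6 runs, that without control-labelled library 2, where the log2 fold change was 0.36 (adjusted p = 0.0142). Without control-labelled library 1 or 3 the limma adjusted p was 0.065 or 0.0525, and without knockout-labelled library 1, 2 or 3 it was 0.0985, 0.126 or 0.157.

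Gzmk (ENSMUSG00000042385, chromosome 13, 113171608 to 113225908, minus strand) encodes granzyme K and had the largest log2 fold change of the 5 over all libraries. The log2 fold change of Gzmm was slightly above that of Gzmk without knockout-labelled libraries 2 and 3 (1.02 against 1.00 by limma, 1.04 against 1.00 by edgeR) and with the B cell covariate (1.014 against 1.005). It measured 2077, 2600 and 1912 normalized counts in the controls, against 4350, 5039 and 4536 under the knockout label. The lowest knockout-labelled value was well above the highest control. The mean rose from 2196 ± 359 to 4642 ± 356.5 (SD, n = 3), which is 2.13-fold, with a log2 fold change of 1.09 and a 95% interval of 0.84 to 1.33 (limma, adjusted p = 0.00101).

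Gzmm (ENSMUSG00000054206, chromosome 10, 79689020 to 79695261, plus strand) encodes granzyme M and was the least abundant of the 5. It measured 684, 736 and 627 normalized counts in the controls, against 1385, 1128 and 964 under the knockout label. Here the spread was wider under the knockout label, with a coefficient of variation of 18.3% against 7.99%. The mean rose from 682 ± 54.5 to 1159 ± 212 (SD, n = 3), which is 1.68-fold, with a log2 fold change of 0.75 and a 95% interval of 0.47 to 1.03 (limma, adjusted p = 0.00868). Leaving out any 1 library kept Gzmb, Gzmk and Gzmm past the threshold, with limma adjusted p up to 0.0193, 0.0105 and 0.0425.

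**Figure D2:**
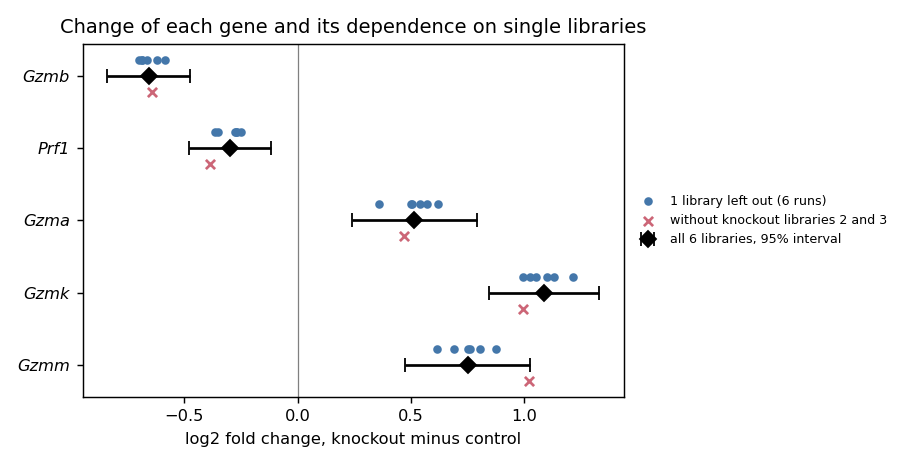
Log2 fold change, knockout minus control label (horizontal axis), of the 5 genes; diamonds and bars are the limma estimate and its 95% interval over 6 libraries, blue points the 6 estimates with 1 library left out, and red crosses the estimate without knockout libraries 2 and 3. Every point keeps the side of 0 of its gene, and the widest range of the blue points is that of Gzma and Gzmm, from 0.36 to 0.62 and from 0.61 to 0.88.

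The 11 summed B cell markers were at 435 normalized counts in knockout-labelled library 1, so each gene was also set against the 3 controls in that library alone and in libraries 2 and 3 alone. The log2 fold change was -0.64 in library 1 and -0.67 in libraries 2 and 3 for Gzmb, 0.47 and 0.54 for Gzma, and 1.00 and 1.13 for Gzmk. It was 1.02 and 0.61 for Gzmm and -0.39 and -0.25 for Prf1, so these 2 genes lay farther from the controls in library 1. With library 1 alone only the controls give the spread. None of the 5 genes passed there, limma called 0 of 13483 tested genes and edgeR called 0 too, and 1861 genes had an unadjusted limma p below 0.05. The part of the B cell transcripts in these results was not tested.

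The promoters of the 3 granzymes that moved apart on chromosomes 13 and 14 are shown for their letters just upstream of the start: Gzmb, which was lower, and the neighbours Gzma and Gzmk, which were higher. Each line is the 250 bases before the RefSeq start on GRCm38.p6, 5′ to 3′ on the gene's strand, and capitals mark matches to 1 of 7 searched motifs on either strand.
Gzmb: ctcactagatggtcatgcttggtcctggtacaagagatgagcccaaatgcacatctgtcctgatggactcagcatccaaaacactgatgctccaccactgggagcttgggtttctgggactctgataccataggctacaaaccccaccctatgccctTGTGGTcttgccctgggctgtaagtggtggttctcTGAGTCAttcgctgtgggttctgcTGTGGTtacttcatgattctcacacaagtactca
Gzma: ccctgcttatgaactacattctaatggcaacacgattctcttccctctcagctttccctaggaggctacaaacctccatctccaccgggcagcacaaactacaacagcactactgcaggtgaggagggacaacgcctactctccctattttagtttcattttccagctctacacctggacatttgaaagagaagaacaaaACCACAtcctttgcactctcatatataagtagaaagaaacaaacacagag
Gzmk: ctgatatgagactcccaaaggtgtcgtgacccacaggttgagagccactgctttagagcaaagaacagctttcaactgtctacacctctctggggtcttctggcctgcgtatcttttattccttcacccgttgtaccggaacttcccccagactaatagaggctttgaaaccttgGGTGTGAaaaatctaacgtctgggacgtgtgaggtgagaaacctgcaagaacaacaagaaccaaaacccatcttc
These windows are chr14:56262335-56262584, chr13:113100982-113101231 and chr13:113180966-113181215, all on the minus strand. The motifs were RUNX (TGTGGT), a T-box site (GGTGTGA), AP-1 (TGANTCA), a STAT site (TTCNNNGAA), TCF/LEF (CTTTGAT), ETS (CCGGAAG) and a CRE site (TGACGTC). No 2 matches overlapped in the windows shown.

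The Gzmb window held a RUNX match at bases 93 to 88 and another at 34 to 29 before the start, and an AP-1 match at 58 to 52. The Gzma window held 1 RUNX match, at 50 to 45. The Gzmk window held no RUNX match and 1 T-box match, at 75 to 69. Of the windows not shown, that of Prf1 held a RUNX match and that at the first RefSeq start of Gzmm held a RUNX match and a STAT match. The window at the second RefSeq start of Gzmm held a T-box match at 189 to 183. In the same window of 32851 RefSeq promoters, the RUNX letters occurred in 14%, the T-box letters in 3.33%, AP-1 in 6.75%, the STAT site in 7.02%, TCF/LEF in 3.21%, ETS in 6.91% and the CRE site in 2.78%. A match is a string of letters and says nothing of binding.

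Levels of different genes were compared after division by exonic length. In the control-labelled libraries the order was Gzma (23167 ± 4197 normalized counts per kb, SD, n = 3), Gzmb (9244 ± 823), Prf1 (2230 ± 145), Gzmk (1581 ± 259) and Gzmm (463 ± 37). Under the knockout label it was Gzma (32756 ± 944), Gzmb (5845 ± 279.9), Gzmk (3342 ± 257), Prf1 (1817 ± 151) and Gzmm (787 ± 144). So Gzmk and Prf1 changed places. Neighbours in either order did not overlap: per kb, Gzmk ran from 1377 to 1872 and Prf1 from 2063 to 2316 in the controls, against 3132 to 3628 and 1701 to 1988 under the knockout label. Among 13648 annotated genes ranked by mean level per kb, Gzma stood at rank 19 under the control label and 11 under the knockout label. Gzmb stood at rank 71 and 135, Gzmk at 542 and 252, Prf1 at 381 and 456, and Gzmm at 2121 and 1146.

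Summed over the 5 genes, the level per kb was 37662, 33049 and 39347 in the controls, against 43358, 45059 and 45226 under the knockout label, and each knockout-labelled sum lay above each control (exact permutation p = 0.1, the smallest possible). The mean sum went from 36686 to 44548 and Gzma alone from 23167 to 32756. The rise of Gzma, the least firm call, thus exceeded that of the whole sum. The make-up of this pool also differed. Gzmb made up 23.1%, 30.8% and 22.4% of the pool in the controls and 13.6%, 12.3% and 13.5% under the knockout label, with means of 25.5% ± 4.66 and 13.1% ± 0.723 (SD, n = 3). Gzma went from 62.8% ± 6.15 to 73.5% ± 0.449 and Gzmk from 4.38% ± 1.14 to 7.50% ± 0.479. Prf1 went from 6.09% ± 0.183 to 4.08% ± 0.291. For each of these 4 shares the labels did not overlap, and the exact two-sided permutation p was 0.1, the smallest possible. The Gzmm share was 1.28% ± 0.218 and 1.77% ± 0.367 and overlapped (exact permutation p = 0.2). Shares of 1 pool are tied to each other, so they are not separate results.

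**Figure D3:**
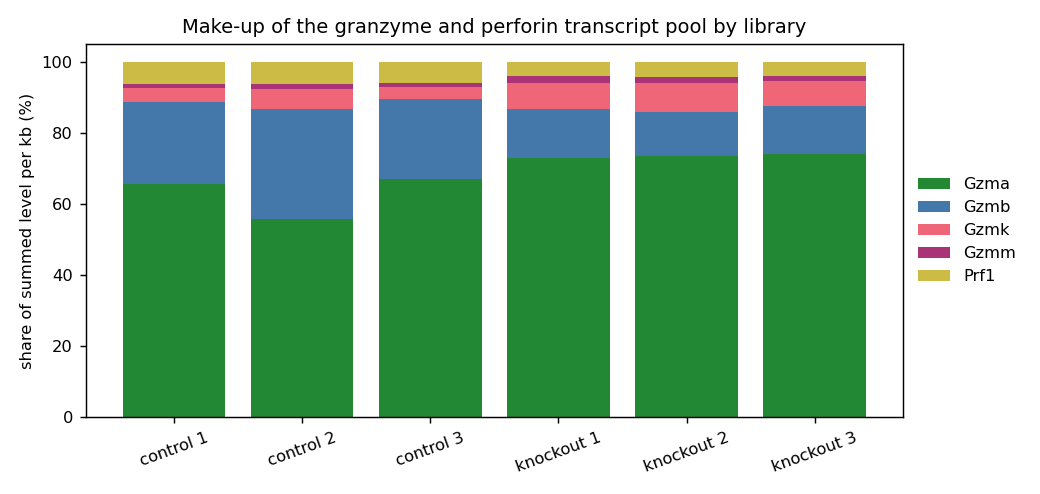
Share (%) of each gene in the summed level per kb of the 5 genes, 1 stacked bar per library. The blue Gzmb part is 22.4% to 30.8% in the controls and 12.3% to 13.6% under the knockout label, and control library 2 has the largest Gzmb part and the smallest Gzma part.

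Ratios of 2 genes within a library do not depend on the factor by which that library was scaled. The ratio of Gzmk to Gzmb, as normalized counts, was 0.166, 0.178 and 0.151 in the controls, against 0.513, 0.633 and 0.519 under the knockout label. Granzyme K transcripts thus stood at less than 0.18 of granzyme B counts in the controls and at more than 0.51 under the knockout label. The mean log2 ratio moved from -2.60 ± 0.12 to -0.86 ± 0.17 (SD, n = 3), a difference of 1.75 or 3.36-fold (exact two-sided permutation p = 0.1, the smallest possible; 0.143 adjusted over the 10 pairs of measured genes). A limma fit on the ratios of all other genes to Gzmb, added after the data were seen, gave the same difference a standard error of 0.11 and an adjusted p of 1.14e-05. That fit called 77.9% of all genes (77.7% higher), and Gzmb, which was lower, is the divisor of every ratio in it. In it all 4 other genes of the group were higher relative to Gzmb, Prf1 by 0.36 (adjusted p = 0.022).

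The ratio of Gzmk to Prf1 was 0.348, 0.488 and 0.320 in the controls and 0.990, 0.981 and 0.996 under the knockout label, where the log2 ratio varied by an SD of only 0.01 (n = 3). The ratio of Gzma to Gzmb was 1.99, 1.27 and 2.09 in the controls and 3.76, 4.19 and 3.85 under the knockout label, a 2.26-fold difference, and that of Gzmm to Gzmb differed 2.66-fold. Of the 10 pairs, 7 had ratios that did not overlap between labels, against 25.0% of all 93209031 pairs of tested genes. A gene higher in every knockout-labelled library, set against a gene lower in every such library, cannot give overlapping ratios. Most of these 7 pairs therefore repeat the values of the single genes and are not a further result. These 7 are every pair that sets Gzmb or Prf1 against Gzma, Gzmk or Gzmm, and the pair of Prf1 and Gzmb. The last had the narrowest gap, with ratios of Prf1 to Gzmb of 0.478, 0.364 and 0.472 in the controls and 0.518, 0.646 and 0.520 under the knockout label.

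The 3 pairs among the granzymes that were higher overlapped. The ratio of Gzmk to Gzma was 0.084, 0.140 and 0.072 in the controls and 0.136, 0.151 and 0.135 under the knockout label (exact permutation p = 0.3). Control-labelled library 2, with low Gzma and high Gzmk, fell among the knockout-labelled libraries there. Without that library all 10 pairs were free of overlap. The share over all pairs of tested genes was not computed for that run. Limma calls over all genes also rose in it, from 708 to 2028. The ratio of Gzmk to Gzmm was 3.04, 3.53 and 3.05 against 3.14, 4.47 and 4.70 (exact permutation p = 0.2), and that of Gzmm to Gzma overlapped widely (exact permutation p = 0.4). None of these p-values shows that the 3 genes changed alike.

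**Figure D4:**
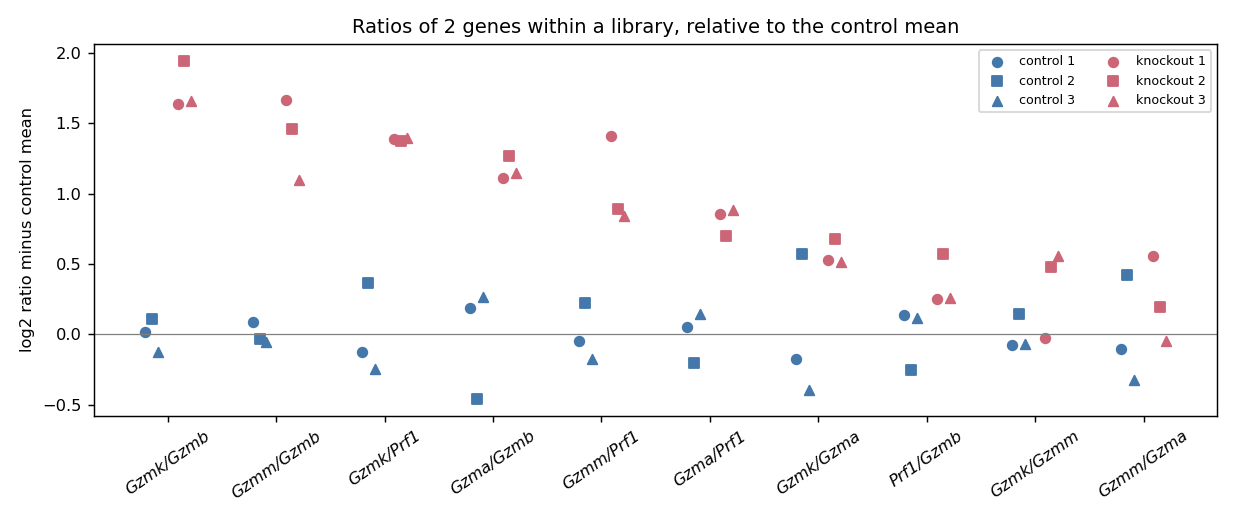
Log2 ratio of 2 genes within a library minus the mean of the control libraries (vertical axis) for the 10 pairs, ordered by difference; blue is the control label and red the knockout label, with circle, square and triangle for libraries 1, 2 and 3. The Gzmk/Gzmb difference is 1.75 and the Gzmm/Gzma difference 0.24, and the 3 pairs that overlap are Gzmk/Gzma, Gzmk/Gzmm and Gzmm/Gzma.

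Control-labelled library 2 stood apart from the other 2 controls in a gene-specific way. Against the control mean on the log2 scale it was at -0.31 for Gzma and -0.11 for Prf1, and at 0.14 for Gzmb, 0.26 for Gzmk and 0.11 for Gzmm. Its Gzmk value of 2600 was the control nearest the knockout-labelled libraries, whereas its Gzmb and Gzma values were the controls farthest from them. Under the knockout label the widest deviations were those of Gzmm, at 0.27 in library 1 and -0.25 in library 3. Over all genes, control-labelled library 2 differed from controls 1 and 3 by a chi-square over its degrees of freedom of 19.4 and 18.9. Against knockout-labelled libraries 1, 2 and 3 the value was lower, at 16.2, 13.3 and 14.8, and between controls 1 and 3 it was 5.36. The value also depends on read depth.

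The genes around each member were examined for like changes. Measured genes with a start within 200 kb of a member numbered 24, of which 1 was called higher and 1 lower. Over all tested genes 2.04% were called higher and 3.15% lower. Esm1, which encodes the secreted proteoglycan endocan, starts 16.2 kb from the GENCODE start of Gzmk and 109 kb from that of Gzma (chromosome 13, 113209659 to 113218098). It measured 848, 651 and 827 normalized counts in the controls, against 1158, 1235 and 1202 under the knockout label, 1.56-fold higher (log2 fold change 0.64, SE 0.10, limma adjusted p = 0.00797). Like Gzma, it was lowest in control-labelled library 2. It lies on the opposite strand inside the annotated span of Gzmk, which a long Gzmk transcript extends, but the exons of the 2 genes share 0 bases. Without knockout-labelled library 3 its adjusted p was 0.0525.

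Adamts14, an extracellular metalloprotease gene that starts 24.4 kb from Prf1, measured 472, 294 and 530 normalized counts in the controls and 167, 210.5 and 160 under the knockout label. It was 2.35-fold lower (limma adjusted p = 0.00873). Its adjusted p was 0.061 without knockout-labelled library 3. Around Gzmm, 13 measured neighbours included 0 calls by limma, edgeR or DESeq2 (2 at an unadjusted limma p below 0.05), and 0 genes within 200 kb of Gzmb were measured. The nearest measured gene of the chromosome 14 cluster that was on a list was Cma1, which encodes a chymase known from mast cells and starts 318 kb from Gzmb. Of 15 protein-coding genes from Cma1 to Gzmb, these 2 were measured, and both fell. The lowest mean of any listed gene was 9.69 normalized counts, and the levels of the unlisted genes of the cluster are not known. Cma1 measured 72.6, 50.6 and 57.8 normalized counts in the controls and 19.5, 16.4 and 11.9 under the knockout label (3.65-fold lower, log2 fold change -1.87, SE 0.28, limma adjusted p = 0.00602), and it passed in 6 of 6 runs with 1 library left out. Transcripts of mast cells, basophils and neutrophils were low in both labels: the 2 measured of 9 markers, Cpa3 and Kit, summed to 20.1 to 27.8 normalized counts in the controls and 14.8 to 25.2 under the knockout label.

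Of 17 measured genes of the granule matrix and of granzyme processing, 3 fell, none rose and 14 did not pass. The 3 are 17.6% of the list, where 3.15% of all genes were called lower. The list's median log2 fold change was 0.00, against 0.01 over all tested genes. Srgn, the serglycin core that holds granzymes in the granule, measured 5475 ± 525 and 5467 ± 880 normalized counts (95% interval of the log2 fold change -0.26 to 0.24). Ctsc, the cathepsin that activates granzymes, measured 2764 ± 215 and 2777 ± 46.8 (-0.15 to 0.17). Both were named for their roles after their values were seen. Among those that fell were Ctsd, the protease cathepsin D (1.32-fold lower, limma adjusted p = 0.017), and Cst7, the inhibitor cystatin F that restrains cathepsin C (1.33-fold, 0.019). Both lost their call when some single libraries were left out, with adjusted p up to 0.104 for Ctsd (lost without control 1 or 3 or knockout 2 or 3) and 0.0903 for Cst7 (control 3, knockout 2 or 3). With either control-labelled library 3 or knockout-labelled library 3 left out, the list held 0 lower genes. Over all genes 120 and 118 were called lower in those runs, against 430 with all libraries.

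Among 6 serpins, 1 rose and 1 fell, where 2.04% of all genes were called higher and 3.15% lower. Serpinb6a, an intracellular serpin, measured 390, 473 and 396 normalized counts in the controls and 754, 681 and 647 under the knockout label (1.65-fold, limma adjusted p = 0.00493). Serpinb1a, whose protein blocks elastase-like proteases, measured 145, 181 and 198 against 44, 64 and 81 (2.79-fold lower, limma adjusted p = 0.00631). Both passed in 6 of 6 runs with 1 library left out. Serpinb9, the granzyme B inhibitor, named after its value was seen, measured 1909 ± 338 and 1798 ± 241 (95% interval of the log2 fold change -0.37 to 0.21, limma adjusted p = 0.788). Serpina3g and Serpinb6b came closest to passing, with limma adjusted p of 0.186 and 0.214.

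Of 21 measured genes of granule exocytosis, 1 fell, none rose and 20 did not pass (median log2 fold change -0.04). The called share of 4.76% is near the 5.19% of all genes. Lyst, the lysosomal trafficking regulator whose loss causes Chediak-Higashi syndrome in humans, measured 2671, 2898 and 2831 normalized counts in the controls and 1969, 2182 and 1929 under the knockout label (1.38-fold lower, limma adjusted p = 0.00695). It passed in 6 of 6 runs with 1 library left out. Sytl1, a synaptotagmin-like Rab27 effector, and Rab27a, the GTPase that docks granules, were closest to passing, with log2 fold changes of -0.34 and -0.33 (limma adjusted p = 0.0562 and 0.0601). Without control-labelled library 2 the list held 5 lower and 1 higher, and DESeq2 on all libraries called 4 lower and 1 higher. Calls over all genes were also more there, at 2028 of 13623 without that library and 1006 of 13654 by DESeq2, against 708 of 13654.

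**Figure D5:**
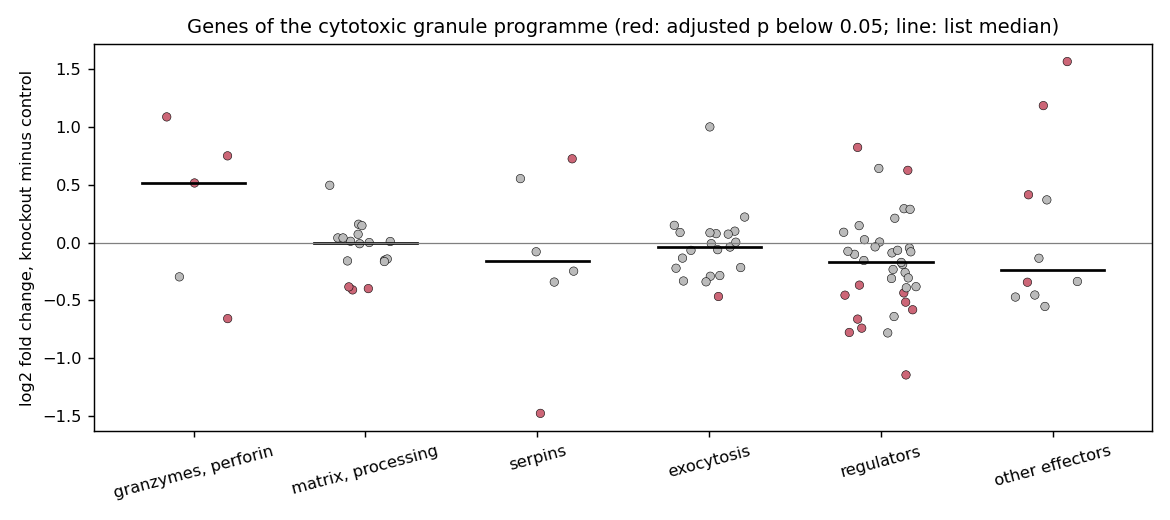
Log2 fold change, knockout minus control label (vertical axis), of each measured gene in 6 lists; red points have an adjusted p below 0.05, grey points do not, and the black line is the list median. The granzyme and perforin genes spread from -0.66 to 1.09, whereas the medians of the matrix and exocytosis lists are 0.00 and -0.04.

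Regulators of granzyme and perforin genes were called in both directions. Of 37 measured, 9 fell, 2 rose and 26 did not pass (median log2 fold change -0.17), where 3.15% and 2.04% of all genes were called lower and higher. The 2 that rose were the transcription factor genes Id3 and Tcf7 (1.77-fold and 1.54-fold, limma adjusted p = 0.00544 and 0.0071). With the smallest p among the falls were Il12rb2, a chain of the interleukin-12 receptor (2.21-fold lower, 0.00111), Prdm1, which encodes Blimp-1 (1.58-fold, 0.00715), Il2ra, a chain of the interleukin-2 receptor (1.67-fold, 0.013), and Klf2, a factor of T cell trafficking (1.43-fold, 0.0141). The T-box factor genes Tbx21 and Eomes and the RUNX factor gene Runx3, named after their values were seen, did not pass. Tbx21 measured 8994 ± 1256 and 7467 ± 211 normalized counts (limma adjusted p = 0.153). Eomes measured 3281 ± 795 and 3730 ± 146 (limma adjusted p = 0.417), and Runx3 7399 ± 704 and 6477 ± 376 (limma adjusted p = 0.228). Bcl6 and Bhlhe40 came closest to passing (limma adjusted p = 0.0564 and 0.0612). Without control-labelled library 2, Tbx21 and Eomes passed (limma adjusted p = 0.0131 and 0.00305), whereas Runx3 did not in any run with 1 library left out.

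Counts of this list rested on single libraries. Without control-labelled library 2 it held 15 lower and 4 higher genes, and it held 2 lower and 2 higher with control-labelled library 3, or with knockout-labelled library 3, left out. Calls over all genes shifted in the same way, from 708 of 13654 to 2028 of 13623 without control-labelled library 2. They were 228 of 13616 without control-labelled library 3 and 200 of 13567 without knockout-labelled library 3. So the shift is not particular to this list. Il12rb2, Id3 and Tcf7 passed in 6 of 6 such runs, Prdm1 and Il2ra in 5 (adjusted p = 0.0502 without knockout-labelled library 3 and 0.0647 without control-labelled library 3) and Klf2 in 2 (up to 0.0822, lost without control 1 or 3 or knockout 2 or 3).

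Genes whose log2 values followed each member most closely over the 6 libraries were sought among the 10515 genes averaging 50 or more normalized counts, by Pearson's r. With 2 groups that stand apart, a high r mostly reflects the difference between labels: the hundredth gene still reached 0.953 for Gzmb and 0.961 for Gzmk. For Gzmb the closest were Ggta1, an alpha-galactosyltransferase (r = 0.998), Il6st, the shared gp130 receptor chain (0.996), and Inpp4b, a phosphoinositide phosphatase (0.996). For Gzmk they were Pou6f1, a POU-domain factor (0.998), Fgr, a Src-family kinase (0.997), and Ighm, the mu heavy chain gene (0.997), which rose 1.62-fold. For Gzma, with its low control-labelled library 2, they were Zfp869, Ddx43 and Tnfrsf25 (0.996, 0.996 and 0.989), the last of which encodes the death receptor DR3. For Gzmm they were Vwa5a, Kremen2 and Atp5g1 (0.996, 0.988 and 0.986), and for Prf1 Trak1, Rnf216 and Gm27194 (0.998 each). The 15 names are all different, so no gene was among the 3 closest of 2 members.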

How the data were processed

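RNA sequencing of 6 libraries was analysed, 3 of each label, grouped by sample title. The authors deposited a linear signal titled normalized counts, apparently gene counts that 1 factor per library divides. The submitters' processing notes name mm10. Aligner, counter, annotation and use of strand: not given in the sources used here. Every value was a whole multiple of its column's step (100% within a tolerance of 0.01). For 2 libraries (control 2, knockout 3) that step is close to 1, and their reads rest on this division alone. Recovered reads numbered 14746864 to 22931296 per library. Library pairs all differed beyond sampling noise (chi-square over its degrees of freedom at least 5.36). IDs were matched to GENCODE M21 (13648 of 13675), which gave exonic lengths. No 50-base stretch of the 5 measured genes' longest coding transcripts occurred in transcripts of another gene.

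The 13654 genes averaging 10 or more normalized counts were tested with limma 3.58.1 in R 4.3.3 on log2(normalized count + 1), with a variance trend. All fold changes refer to this scale, on which low genes change less. Ratios and shares were tested by exact permutation. The fit was tested on simulated counts. Alternatives were pseudocounts, filters, scalings, weights, a replicate block, edgeR 4.0.16, DESeq2 1.42.0, left-out libraries and a B cell covariate. Named genes were the members, called genes of each list (up to 6) with up to 2 that came closest, neighbours within 200 kb and the 3 genes most like each member. One called gene of the lists is not reported here. Members and lists were chosen with earlier results of these data known. Promoter sequences are RefSeq's (GRCm38.p6).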

Additional observations from a re-analysis of the deposited data

How the results depend on the processing

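Gzmb, Gzmk, Gzmm, Gzma and Prf1 kept their direction in each of 20 alternatives, with log2 fold changes from -0.70 to -0.59, 1.00 to 1.22, 0.61 to 1.04, 0.36 to 0.62 and -0.40 to -0.22. They passed in 17, 18, 17, 10 and 3 of them. Without a variance trend 1 gene of the group was called higher, with Gzma at 0.52 and Gzmm at 0.75 not passing (adjusted p = 0.157 and 0.0832). With the replicate block Gzma (0.52) did not pass (limma adjusted p = 0.102). The labels do not say whether same-numbered samples were handled together. Deviations of same-numbered libraries from their label's mean correlated at -0.54, -0.27 and -0.23, and no library correlated best with its own number. Deviations from a mean of 3 libraries are tied to each other, so these correlations cannot decide whether the samples are paired. The block lowered the calls from 708 to 197. Array weights and DESeq2 called 2 genes lower, as Prf1 passed (-0.34 and -0.30; adjusted p = 0.00659 and 0.0144). With 1 library left out, Gzma ranged from 0.36 to 0.62 and Prf1 from -0.36 to -0.25, and 1 to 2 genes were called lower. Without knockout-labelled libraries 2 and 3, 0 genes were called higher and 0 lower by limma, with Gzma at 0.47, Gzmb -0.64, Gzmk 1.00 and Gzmm 1.02. By edgeR, added after seeing the data, it was 0 and 0 too, with 0.46, -0.63, 1.00 and 1.04. At an unadjusted p below 0.05 each tool had 2 higher and 2 lower, and 1 knockout-labelled library was left. The B cell covariate was the mean log2 level of all 13 B cell markers, Cd22 and Ighm included, so it partly follows the label. With it Gzma (0.46) and Gzmb (-0.63) did not pass (limma adjusted p = 0.239 and 0.0544), and 2 genes were called higher and 0 lower. At an unadjusted p below 0.05 that limma fit had 2 lower, and limma and edgeR without the covariate each called 1. The ratio of Gzmk to Gzmb differed by 1.65 to 1.80 with 1 library left out. With the replicate block the difference was 1.75 (exact sign-flip p = 0.25, the smallest that 3 pairs allow). This ratio passed in the limma fit of ratios to Gzmb (1.75), but that fit called 77.9% of all genes, so passing there says little. The Gzmb share of the pool fell by 9.66 to 13.9 percentage points with 1 library left out and by 12.3 in all libraries. With the replicate block it fell by 12.3 too (exact sign-flip p = 0.25), and with coding transcript lengths by 12.2. Over all genes the calls numbered 0 without knockout-labelled libraries 2 and 3 by limma and by edgeR, 117 with the B cell covariate, 141 without a variance trend, 645 by edgeR, 1006 by DESeq2 and 2676 with array weights. The regulator list held 2 higher and 2 lower with the replicate block. Among runs with 1 library left out they were 200 without knockout-labelled library 3, 228 and 370 without control-labelled library 3 or 1, 320 and 440 without knockout-labelled library 2 or 1, and 2028 without control-labelled library 2. The cause of these shifts was not tested.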

Other observations

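Other effector genes of CD8+ T cells moved in both directions beside the granzymes. Of 10 measured, 3 rose and 1 fell, where 2.04% of all genes were called higher and 3.15% lower. Leaving out control-labelled library 2 raised the falls to 5, as did array weights, and leaving out any of the other 5 libraries singly gave 0. Over all genes the lower calls also rose in the first 2 of these, from 430 to 982 and 1361. With the B cell covariate 0 of the 10 effector genes were called higher and 0 lower. Lta, which encodes lymphotoxin alpha, measured 45.0, 31.7 and 56.1 normalized counts in the controls, against 122, 130 and 138 under the knockout label, 2.96-fold higher (limma, adjusted p = 0.00446). Tnf, its neighbour in the tumour necrosis factor family, measured 124, 173 and 191 against 372, 318 and 412 (2.28-fold, limma adjusted p = 0.00489). Both passed in 6 of 6 runs with 1 library left out. Ltb, lymphotoxin beta, rose 1.33-fold (limma adjusted p = 0.0357) and Tnfsf10, the death ligand TRAIL, was 1.27-fold lower (limma adjusted p = 0.0268), but they passed in 2 and 1 of those runs (adjusted p up to 0.126 and 0.124). Ltb was lost without control 1 or 3 or knockout library 1 or 2, and Tnfsf10 passed only without control-labelled library 2. Fasl, which encodes the death ligand of the other main killing route, measured 619 ± 67.1 and 493 ± 80.6 normalized counts (SD, n = 3) and did not pass (limma adjusted p = 0.161). Ccl3, a chemokine gene, did not pass either (limma adjusted p = 0.104). Without control-labelled library 2 both passed (limma adjusted p = 0.0376 for Fasl and 0.004 for Ccl3).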
